A study of Homo sapiens with 3 samples.

Results

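The 48 genes described here encode the subunits of the proteasome, its activators and its inhibitor, and the chaperones that assemble it. They were taken by name, as every gene of the deposited count table of 51136 genes whose symbol is PSMA, PSMB, PSMC, PSMD, PSME, PSMF or PSMG followed by a number. This naming rule uses no measured value, but it was chosen with earlier results of these data known. RNA-seq was performed in cells of the PANC-1 line, which was derived from a human pancreatic carcinoma, on an Ion Proton sequencer. 1 library came from untreated control cells, 1 from cells given 200 μM ginsenoside Rg3 for 24 h and 1 from cells given 50 μM tamoxifen (TAM) for 24 h. Rg3 is a saponin of ginseng, TAM is a modulator of the estrogen receptor, and all 3 libraries share the line and its growth medium with fetal calf serum. The sources do not say whether a library pooled several cultures, and no solvent control is named.

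The proteasome breaks down proteins tagged with ubiquitin. Its 20S core is a barrel of outer alpha rings and inner beta rings, and only PSMB5, PSMB6 and PSMB7 among the constitutive beta subunits cut peptide bonds. The 19S cap recognizes ubiquitin, removes it, and unfolds the substrate with a ring of ATPases. Immune cells and cells exposed to interferon exchange the cutting subunits for PSMB8, PSMB9 and PSMB10, and cells whose proteasome is blocked raise the subunit genes together through the transcription factor NFE2L1.

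Depth on annotated genes was 11300766 reads for control, 12861693 for Rg3 and 11321442 for TAM. Of the 48 genes, 46 reached 10 counts in 1 or both libraries of every comparison and were compared. The other two, PSMA8, an alpha subunit of the testis, and PSMB11, a beta subunit of the thymus, had 0 counts in all 3 libraries, which allows up to 3 counts per library. The 48 genes took 1.05% of all control counts, 1.03% of all Rg3 counts and 1.27% of all TAM counts. Each fold change below compares 1 library with 1 library, so none has a replicate check, and the 95% exact (Clopper-Pearson) intervals cover counting error only. PCR copies cannot be told from separate molecules in these counts. A gene was called higher or lower when its counts, scaled by the trimmed mean of M values (TMM), differed by over 1.5-fold, which is 0.58 on the log2 scale. In bulk RNA, fewer cells that use a gene and less of its RNA per cell cannot be told apart. Of the markers of this line, KRT8 had 7817 to 15329 counts and VIM 39783 to 55276, while the epithelial genes EPCAM (8 to 26 counts) and CDH1 (5 to 76 counts) were low in all libraries. The 8 markers of blood, endothelial and liver cells had 0 to 3 counts.

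Levels differed widely among the members of one complex. Per kilobase of transcript, the median member had 53.4 CPM per kb (CPM being counts scaled to a common library size) in the control library, and the lowest was PSMD12, a lid subunit of the 19S cap, with 5.52. The highest was PSMC4, an ATPase of the 19S base, with 1619 CPM per kb, 30.3 times the median member. Its 29571, 27511 and 30578 counts in the control, Rg3 and TAM libraries were 24.8%, 20.7% and 21.3% of all counts on the 48 genes. With coding length in place of transcript length, PSMC4 was 17.9 times the median. The lowest member was then PSME4 at 11.9 CPM per kb, with PSMD12 at 17.8. The other ATPases of the same ring lay between 7.96 (PSMC6) and 209 (PSMC3) CPM per kb. Only 32 of 14195 genes with at least 10 counts and a length, 0.225%, were above PSMC4 in the control library. PSMD8, a lid subunit, was the highest of the 19S non-ATPase genes at 480 CPM per kb. The 7 constitutive beta genes had a median of 373 CPM per kb, with PSMB4 highest at 569, while the 7 alpha genes that were detected had a median of 56.9. PSMA7 was the highest alpha gene at 320.

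**Figure D1:**
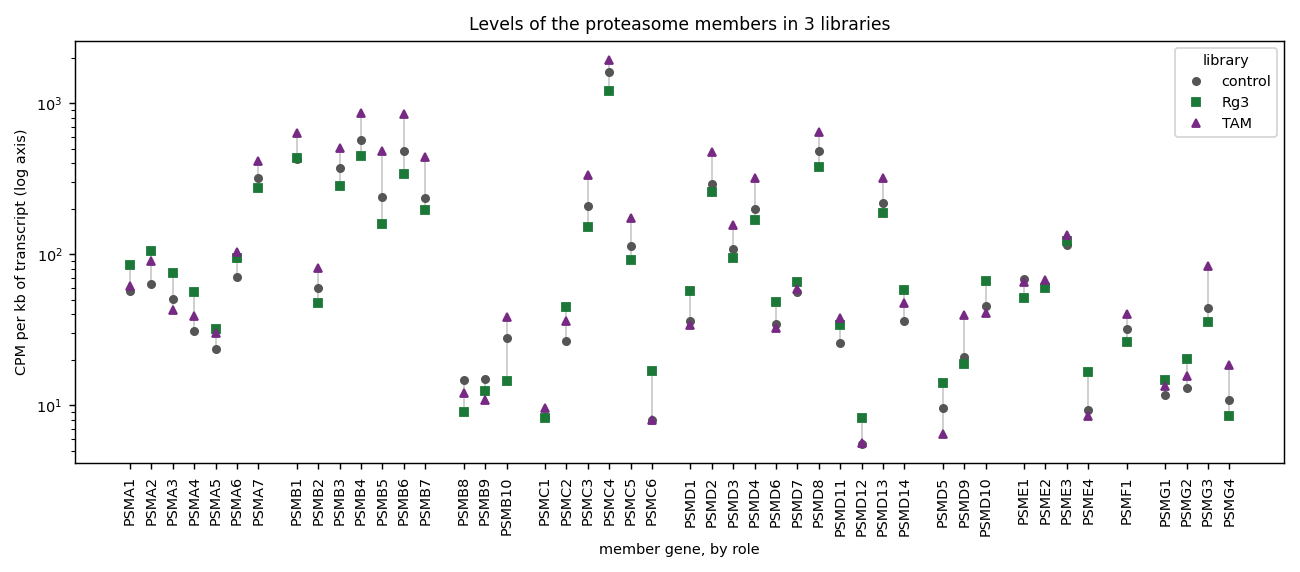
Level of each of the 46 detected genes in the control, Rg3 and TAM libraries, as CPM per kb of transcript on a log axis, with genes ordered by role on the horizontal axis and a grey line joining the libraries. PSMC4 stands above every other gene in all 3 libraries, from 1201 in the Rg3 library to 1931 in the TAM library.

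PSMC4 lies on the plus strand of chromosome 19 (GRCh38, GENCODE 29 annotation, chr19:39971005-39981441). It shared no stretch of 50 bases with another gene's transcripts. Within 300000 bases of it, 10 genes including PSMC4 had at least 10 counts, and their median level was 47.5 CPM per kb in the control library, against 6.26 over all 14195 genes. FBL, for the rRNA methyltransferase fibrillarin, had 4685 CPM per kb and AKT2, a kinase, 592. FCGBP, ZNF546 and ZNF780B in the same stretch were at 0.884, 1.10 and 3.27. This neighbourhood was chosen after the level of PSMC4 was seen, and why PSMC4 is high was not tested.

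**Figure D2:**
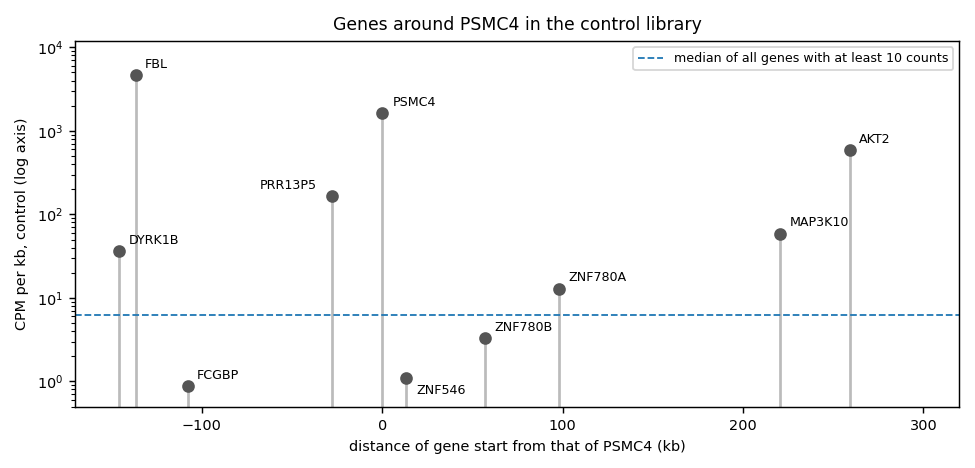
Level of the 10 genes within 300000 bases of PSMC4 in the control library, as CPM per kb on a log axis, against the distance of each gene's start from that of PSMC4 in kb. The dashed line is the median of all genes with at least 10 counts (6.26), and FBL, PSMC4 and AKT2 lie far above it while 3 genes lie below it.

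With Rg3 against control, the question was whether the complex moves as a unit, and under TMM scaling it did not move in 1 direction. Of the 46 genes, 8 were over 1.5-fold higher and 3 lower, while 21 lay above 0 and 25 below. Over all 16487 genes compared, 25.0% were higher and 19.3% lower by the same limit, and the members' own shares were 17.4% and 6.52%. The median log2 fold change of the members was −0.10, against 0.04 over all genes. Among genes that reached 1000 counts in a library, it was −0.12 over 32 members and −0.14 over 2918 genes. In that class 6 members were higher and 1 lower, against 14.8% and 18.3% of the genes. The rings of the core parted. In the alpha ring 6 of 7 genes were above 0 and the median was 0.57, which became 4 of 7 and 0.02 once a trend with GC content and length, described further on, was removed. In the constitutive beta ring 6 of 7 were below 0 and the median was −0.36, which became 7 of 7 and −0.25. Alpha genes took 26.5% of the control counts on both rings (95% interval 26.0 to 26.9) and 37.0% of those with Rg3 (36.5 to 37.5), a share that does not depend on how libraries are scaled but can move with GC content.

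With TAM against control, most members lay higher. Of the 46 genes, 37 were above 0 and 9 below (31 above with library totals and 33 with the trend removed). Their median was 0.39, against −0.02 over all 16079 genes. Over all genes compared, 48.7% were above 0 (36.6% with library totals and 49.7% with the trend removed). By the 1.5-fold limit 11 members were higher and 1 lower (23.9% and 2.17%), while 17.4% of all genes were higher and 23.5% lower. The members are mostly well expressed, and well expressed genes as a whole were higher in the TAM library. Among the 2552 genes that reached 1000 counts in a library, 25.8% were past the limit upward and 7.6% downward, with a median of 0.33. Of these genes, 72.7% were above 0. Of the 28 members in that class 10 were past it upward and 0 downward, 27 were above 0, and the median was 0.53. A gene enters this class by its larger count, so it can enter through the TAM library alone. PSMA6, PSMD9 (666 control and 1095 TAM counts) and PSMG3 (707 and 1149) did so. PSMD9 and PSMG3 are among the members past the limit upward. PSMD7 and PSME2 entered through the control library alone. In the beta ring all 7 genes were above 0, with TMM scaling, with library totals and with the GC trend removed alike. Alpha genes made up 22.0% of the counts on both rings in the TAM library (21.6 to 22.4), below the 26.5% of the control library.

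**Figure D3:**
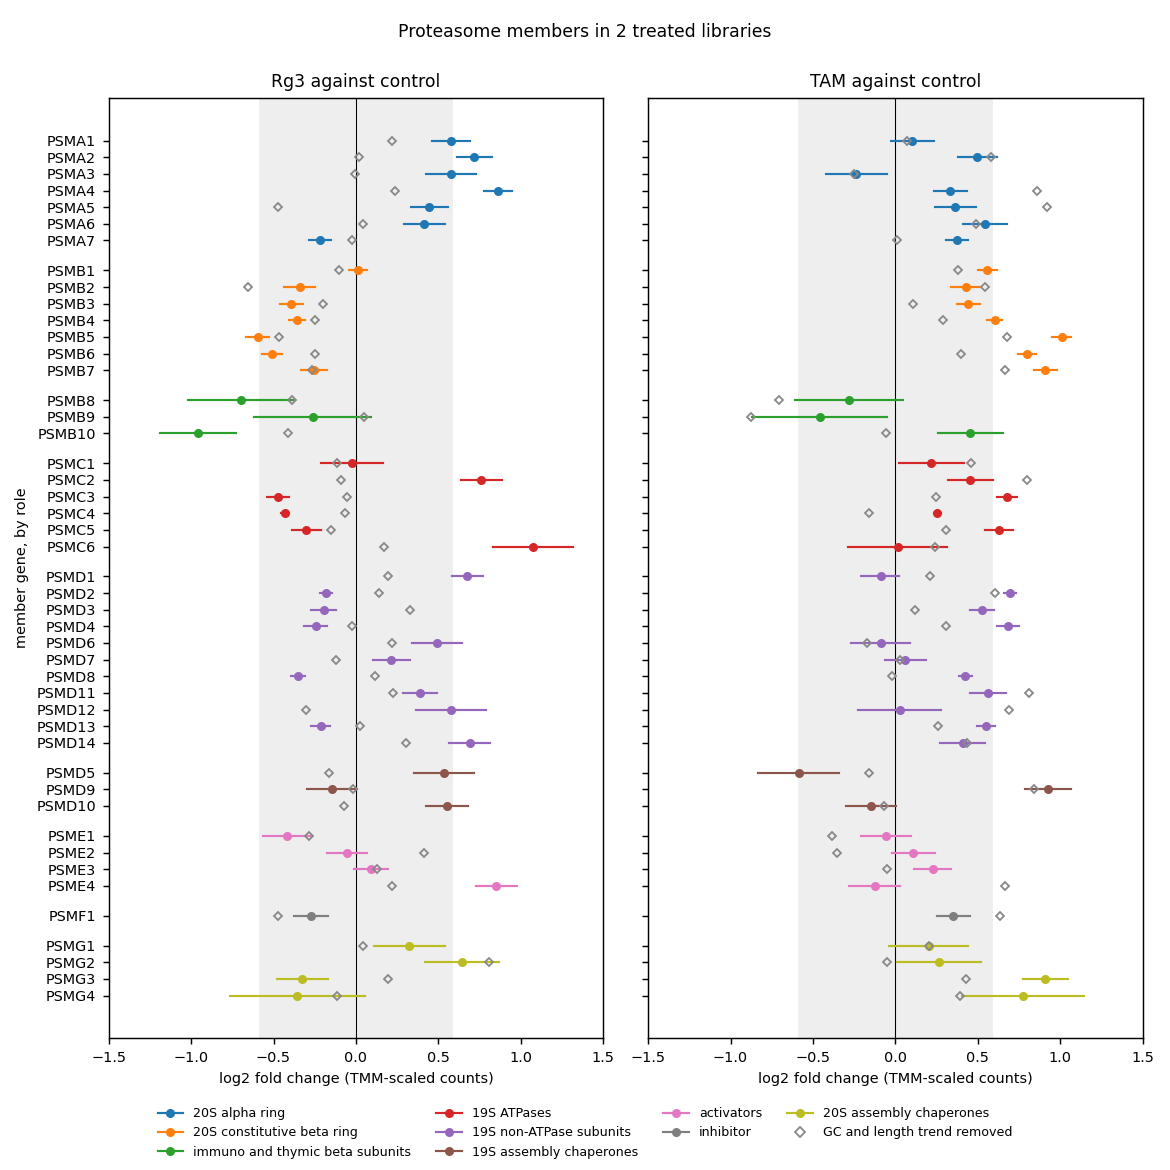
Log2 fold change (TMM-scaled counts) of each of the 46 genes with Rg3 and with TAM against the control library, coloured by role. Lines are 95% intervals for counting error, the grey band is the range within 1.5-fold, and open diamonds are the values after the trend with GC content and length was removed. With Rg3 the alpha genes lie mostly right of 0 and the beta genes left, and with TAM all 7 beta genes lie right of it.

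Among the cutting subunits, PSMB5, the chymotrypsin-like subunit, had 3559 control, 2951 Rg3 and 6200 TAM counts. PSMB6, the caspase-like subunit, had 4736, 4172 and 7142. PSMB7, the trypsin-like subunit, had 2645, 2782 and 4302. For all 3 genes the TAM library was highest and the Rg3 library lowest once depth was scaled. PSMB5 was 2.01-fold higher with TAM (log2 1.01, interval 0.95 to 1.07), the largest difference of any member in that comparison, and lower with Rg3 (−0.60, interval −0.67 to −0.53). The values of PSMB6 were 0.80 with TAM and −0.51 with Rg3, and those of PSMB7 were 0.91 and −0.25. PSMB4, a structural beta subunit with 6299, 6167 and 8284 counts, was also past 1.5-fold with TAM (0.60). PSMB1, PSMB2 and PSMB3, the remaining structural subunits, had log2 values of 0.43 to 0.56 with TAM and −0.39 to 0.01 with Rg3, within the limit.

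The inducible subunits were scarce, and with TAM they made up smaller shares of the counts of their pairs. PSMB8, which takes the place of PSMB5, had 189, 146 and 135 counts in the control, Rg3 and TAM libraries. PSMB9, which takes the place of PSMB6, had 133, 139 and 84, and PSMB10, which takes the place of PSMB7, had 390, 252 and 463. PSMB8 made up 5.04% of the control counts on PSMB8 and PSMB5 (95% interval 4.36 to 5.79), 4.71% of those with Rg3 (3.99 to 5.52) and 2.13% of those with TAM (1.79 to 2.52). PSMB9 made up 2.73%, 3.22% and 1.16% of its pair, and PSMB10 12.9%, 8.31% and 9.72%. In every pair the interval of the TAM library lay below that of the control library. For PSMB10 the interval of the Rg3 library (7.3 to 9.3) also lay below that of control (11.7 to 14.1). For PSMB8 and PSMB9 the Rg3 and control intervals overlapped. These shares can move with GC content, which was 60.1% for PSMB10 and 49.9% for PSMB7. With Rg3, PSMB10 (−0.96) and PSMB8 (−0.70) were over 1.5-fold lower and PSMB9 was at −0.26. With TAM the values were −0.28 for PSMB8, −0.46 for PSMB9 and 0.45 for PSMB10, none past the limit. PSMB8 and PSMB9 overlap on opposite strands of chromosome 6 (chr6:32840717-32844703 and chr6:32844136-32859585), and whether strand was used in counting is not given in the sources used here, so reads of the overlap cannot be told apart.

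In the alpha ring, PSMA4, one of the subunits whose tails close the gate of the core, had 1577, 3588 and 1720 counts. It was over 1.5-fold higher with Rg3 (log2 0.86, interval 0.77 to 0.95) and within the limit with TAM (0.33). PSMA2, with 1087, 2241 and 1329 counts, was also higher with Rg3 (0.72) and had 0.50 with TAM. PSMA1 (0.58), PSMA3 (0.57), PSMA5 (0.44) and PSMA6 (0.41) lay below the limit with Rg3. PSMA7 was the exception in its ring, with 3658, 3945 and 4105 counts and log2 values of −0.22 with Rg3 and 0.37 with TAM. No alpha gene was past the limit with TAM, where PSMA3 was lowest at −0.24. Of the 50-base stretches of PSMA6, 24.6% recur in another gene, so its counts are uncertain.

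The ring of 6 ATPases in the 19S base held the largest value with Rg3. PSMC6 had 200 control, 527 Rg3 and 175 TAM counts, and was 2.10-fold higher with Rg3 (log2 1.07, interval 0.83 to 1.31). PSMC6 recurs in part in other genes, with 24.7% of its stretches shared, and the rows of its processed pseudogenes held 183, 453 and 145 counts, so the split between gene and pseudogene is uncertain. PSMC2 had 804, 1708 and 954 counts and was also past the limit with Rg3 (0.76), but this value turned to −0.09 once the GC and length trend was removed. With TAM the members past the limit were PSMC3 (3798, 3435 and 5258 counts, log2 0.68) and PSMC5 (2050, 2088 and 2743 counts, 0.63), which were at −0.47 and −0.30 with Rg3. PSMC4 was at −0.43 with Rg3 and 0.25 with TAM. PSMC1 had 424, 523 and 427 counts against 1471, 2118 and 1765 on its pseudogene rows and shared 29.4% of its stretches, so its values of −0.02 and 0.22 are uncertain.

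Of the 11 non-ATPase subunits of the 19S cap, 2 were higher with Rg3 and 2 others with TAM (18.2% each, against 25.0% and 17.4% of all genes). With the trend removed 0 were higher with Rg3 and 3 with TAM. PSMD1, the scaffold that binds ubiquitin-processing partners, had 1371, 2743 and 1116 counts in the control, Rg3 and TAM libraries, with log2 values of 0.67 and −0.09. PSMD14, the enzyme that cuts ubiquitin chains from substrates, had 805, 1627 and 925 counts, with 0.69 and 0.41. With TAM, PSMD2, the other large scaffold of the base, had 16244 counts against 11581 in the control library (0.69), and PSMD4, a ubiquitin receptor, had 4302 against 3098 (0.68). With Rg3 they were at −0.18 and −0.24. PSMD4 shared 22.8% of its stretches with other genes. The lid genes PSMD3, PSMD6, PSMD7, PSMD8, PSMD11, PSMD12 and PSMD13 were within the limit in both comparisons, from −0.35 (PSMD8) to 0.57 (PSMD12) with Rg3 and from −0.09 (PSMD6) to 0.56 (PSMD11) with TAM.

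The chaperones that build the 19S base did not move together. PSMD9 had 666, 754 and 1095 counts and was higher with TAM (log2 0.92, interval 0.78 to 1.06), with −0.15 with Rg3. PSMD5 had 381, 692 and 220 counts and was the single member past 1.5-fold downward with TAM (−0.59, interval −0.83 to −0.34), while with Rg3 it was at 0.53. With DESeq2 size factors it was within the limit (−0.55), and with the GC and length trend removed it was −0.16. PSMD10, also known as the oncoprotein gankyrin, had 806, 1481 and 630 counts and values of 0.55 and −0.15. Exons of PSMD9 overlap those of WDR66 on the same strand, so its reads may not all be its own.

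The chaperones of the 20S core work as pairs. PSMG1 and PSMG2, which start the alpha ring, had 288, 452 and 287 counts and 252, 493 and 262 counts. With Rg3, PSMG2 was past the limit (log2 0.64, interval 0.42 to 0.87) and PSMG1 was at 0.32, and with TAM they were at 0.26 and 0.20. PSMG3 and PSMG4, the other pair, had 707, 708 and 1149 counts and 104, 102 and 154 counts. Both were past the limit with TAM (0.91 and 0.77) and below 0 with Rg3 (−0.32 and −0.35). PSMG2 overlaps exons of CEP76 and SPIRE1 on the opposite strand, and PSMG3 overlaps PSMG3-AS1, so shared reads could not be set apart.

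Among the activators, PSME4, the cap known as PA200, had 753, 1703 and 598 counts and was past the limit with Rg3 (log2 0.85, interval 0.73 to 0.98), with −0.13 with TAM. PSME1 and PSME2, the interferon-inducible PA28 pair, had 786, 737 and 656 counts and 1004, 1211 and 938 counts. Their values were −0.42 and −0.06 with Rg3 and −0.05 and 0.11 with TAM, within the limit. PSME3, the nuclear PA28 gamma, was at 0.09 and 0.22. PSMF1, the inhibitor PI31, had 1562, 1621 and 1725 counts, with −0.27 and 0.35.

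The fold changes of the members went with the GC content of their transcripts. Over the 46 members, Spearman's rho between the log2 fold change and GC content was −0.79 with Rg3 and 0.39 with TAM. Over all genes with at least 50 counts it was −0.82 (11959 genes) and 0.52 (11375 genes). These correlations are across genes that share the same libraries, and are descriptions. Of the 23 members with at least 50% GC, 21 lay below 0 with Rg3, and of the 23 under 50%, 19 lay above it. The alpha genes had a median GC content of 42.1% and the constitutive beta genes 51.8%, so ring and base composition moved together. The lowest GC content belonged to PSMC6 (36.8%) and the highest to PSMB10 (60.1%), which were the highest and the lowest member with Rg3.

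A smooth trend with GC content and length, fitted over all genes with at least 50 counts, was therefore taken off the fold changes. With Rg3, 1 member then stayed past 1.5-fold upward, PSMG2 at 0.81, and 1 was past it downward, PSMB2 at −0.66. By the same rule 8.39% and 10.0% of all genes were past the limit. The median of the members was −0.03, and their SD fell from 0.50 to 0.27, while that of all genes fell from 0.75 to 0.51. Among genes with at least 1000 counts, the SD after removal was 0.26 over 32 members and 0.37 over 2854 genes. 4 of 7 alpha genes stayed above 0, and all 7 beta genes were below it, from −0.66 to −0.10. Of the 8 members higher before removal, PSMG2 alone stayed past the limit, and the beta ring had 6 of 7 genes below 0 before removal and 7 after.

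With TAM the removal left 11 members higher and 2 lower, against 12.1% and 16.1% of all genes, and a median of 0.27. PSMB5 (0.67), PSMB7 (0.67), PSMD9 (0.84) and PSMD2 (0.60) were past the limit on both scales. PSMA4 (0.86), PSMA5 (0.92), PSMC2 (0.80), PSMD11 (0.81), PSMD12 (0.69), PSME4 (0.67) and PSMF1 (0.63) were past it only after removal. These 7 have long transcripts, with a median of 4290 bases against 1566 over the 46 members. The other 7 earlier calls ended with removal, at 0.29 for PSMB4, 0.40 for PSMB6, 0.24 for PSMC3, 0.31 for PSMC5, 0.31 for PSMD4, 0.43 for PSMG3 and 0.39 for PSMG4. The members past it downward were the inducible PSMB8 (−0.71) and PSMB9 (−0.87). After removal the rho of the members' fold changes with GC content had turned from 0.39 to −0.36 and that with length from −0.18 to 0.46. The trend of all genes thus left a relation among the members with TAM. Whether this is particular to the members was not tested. Among the 2490 genes with at least 1000 counts, the median after removal was also above 0 (0.13), with 63.6% above 0. For the 28 members in that class the median was 0.34, with 85.7% above 0. What produced the trend was not tested, and with 1 library per condition treatment and library preparation cannot be told apart.

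**Figure D4:**
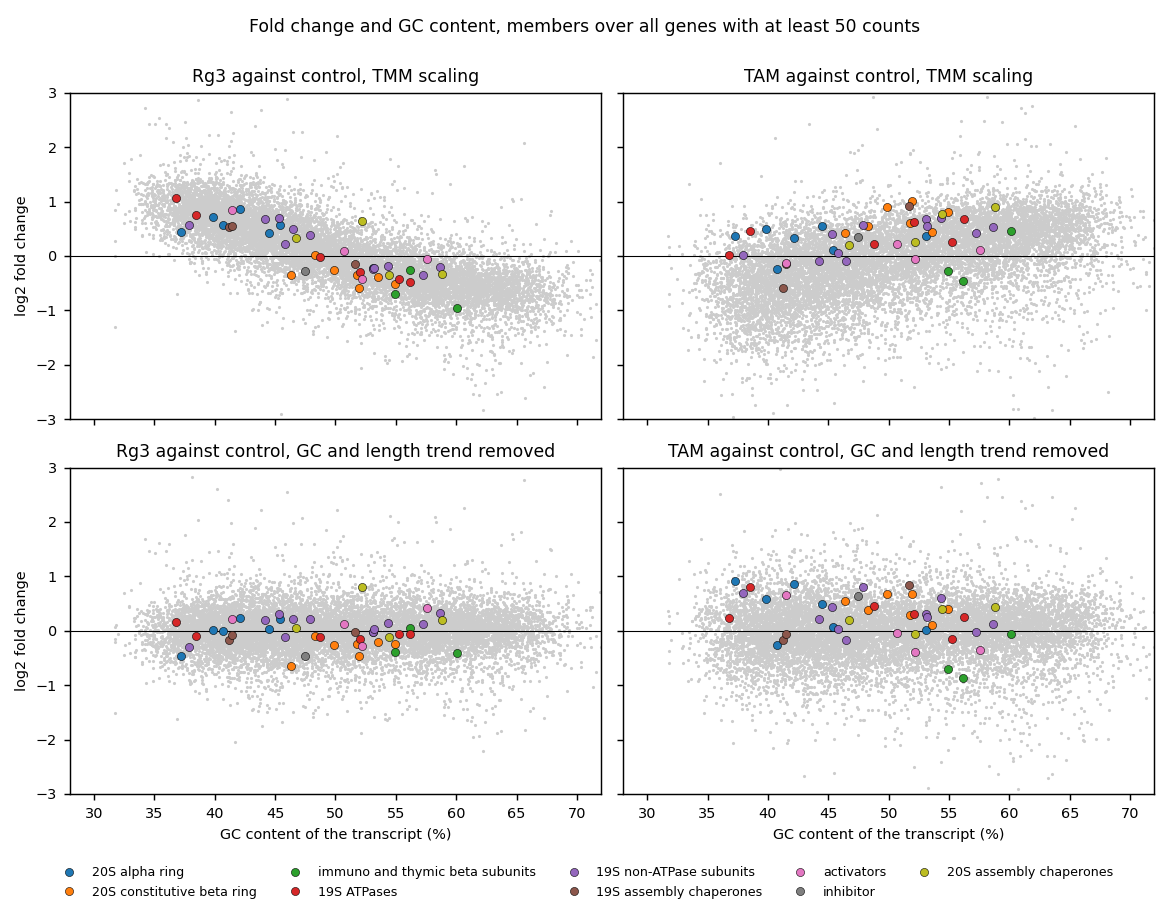
Log2 fold change against GC content of the transcript (%), with Rg3 (left) and TAM (right) against control, before (top) and after (bottom) the trend with GC content and length was removed. Grey points are all genes with at least 50 counts that lie within the axes and coloured points the 46 members by role. Before removal the members lie along the falling band of the Rg3 library (rho −0.79), and after it (0.03) they do not.

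Scaling moves every value by the same amount. Against plain library totals, TMM lowered the log2 fold changes with Rg3 by 0.14 and raised those with TAM by 0.21. With totals, 14 members were higher and 1 lower with Rg3 (31.4% and 13.8% of all genes), and 5 were higher and 2 lower with TAM (9.8% and 32.6%). The medians became 0.04 and 0.18, and 31 of 46 members stayed above 0 with TAM. The alpha ring with Rg3 kept 6 of 7 genes above 0 and the beta ring 6 of 7 below.

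The treated libraries share the control library, so their values are given side by side and not as 2 independent results. 15 members were above 0 in both, 22 were below 0 with Rg3 and above with TAM, 6 were above with Rg3 and below with TAM, and 3 (PSMB8, PSMB9 and PSME1) were below in both. Set against each other directly, the Rg3 library was over 1.5-fold above the TAM library for 6 members and below it for 20. Over all 16493 genes the shares were 35.1% and 30.0%. The median of the members was −0.30. Well expressed genes as a whole were also lower. Among the 3125 genes that reached 1000 counts in a library, 21.7% were past the limit upward and 42.4% downward, with a median of −0.38. Of the 34 members in that class 4 were past it upward and 18 downward, and the median was −0.61. Here too a gene can enter through 1 library alone. PSMA3, PSMD10 and PSME4, past the limit upward, entered through the Rg3 library alone. PSMD9 and PSMG3, past it downward, entered through the TAM library alone. All 7 constitutive beta genes were lower in the Rg3 library, 6 of them past the limit and PSMB5 most (log2 −1.60, interval −1.67 to −1.54). All 7 were also lower with library totals and after removal of the trend. The highest members were PSMD5 (1.12), PSMC6 (1.06), PSME4 (0.98), PSMA3 (0.81) and PSMD1 (0.76). PSMB10 (−1.41), PSMB6 (−1.31), PSMG3 (−1.23) and PSMB7 (−1.16) followed PSMB5 at the low end. After removal of the trend 3 members were higher and 12 lower, against 19.1% and 17.4% of genes. Of the 5 highest, only PSMA3 stayed above 0 after removal, at 0.21.

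The promoters show what the upstream sequence of members that differed most looks like. They are shown for PSMC6, highest with Rg3, for PSMB5, highest with TAM, and for PSMD9, next to it with TAM, from RefSeq (GRCh38.p14), 5′ to 3′ on the strand of the gene, up to the base before the gene's start. PSMC6 is at chr14:52706950-52707171 on the plus strand, PSMB5 at chr14:23035231-23035470 on the minus strand, at the outer of its 2 RefSeq starts, and PSMD9 at chr12:121888540-121888730 on the plus strand. Capitals mark matches to the motifs searched.
PSMC6: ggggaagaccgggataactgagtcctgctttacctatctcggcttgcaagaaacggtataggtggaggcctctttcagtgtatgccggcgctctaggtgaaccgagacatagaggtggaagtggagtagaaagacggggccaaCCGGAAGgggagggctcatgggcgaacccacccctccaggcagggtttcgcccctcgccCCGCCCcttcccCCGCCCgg
PSMB5: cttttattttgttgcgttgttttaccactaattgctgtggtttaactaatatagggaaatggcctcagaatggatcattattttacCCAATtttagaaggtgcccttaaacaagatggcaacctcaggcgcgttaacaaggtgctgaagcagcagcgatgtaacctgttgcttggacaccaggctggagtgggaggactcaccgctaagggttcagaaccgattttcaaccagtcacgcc
PSMD9: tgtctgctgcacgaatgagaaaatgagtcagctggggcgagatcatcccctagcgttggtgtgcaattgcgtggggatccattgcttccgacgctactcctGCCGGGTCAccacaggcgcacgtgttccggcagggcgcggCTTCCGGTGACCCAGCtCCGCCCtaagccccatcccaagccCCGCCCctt
The motifs, searched on both strands, were TGACNNNGC (the core of the antioxidant response element, which NFE2L1 and NFE2L2 bind), CCAAT, GCATGCGC (nuclear respiratory factor 1 type), CCGGAAG (ETS type), GGGCGG (GC box) and GAAANNGAA (interferon response type). The PSMC6 stretch held CCGGAAG once and GGGCGG at 2 places. PSMB5 held a single CCAAT. PSMD9 held TGACNNNGC at 2 places, the second directly beside a CCGGAAG and not overlapping it, and GGGCGG at 2 places.

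A RefSeq promoter window of 300 bases, reaching 50 bases past the start, was found for 42 of the 48 genes. TGACNNNGC was in 15 of them (35.7%), against 16.1% of 27305 genes with a window and 19.6% of the 10004 with a window that were compared with Rg3. CCGGAAG was also in 15 (35.7%), against 12.2% and 22.3%. GAAANNGAA was in 8 of the 42, against 9.86% and 8.44%. 4 of these 8 were the inducible genes PSMB8, PSMB10, PSME1 and PSME2, and the others were PSMA4, PSMB4, PSMC2 and PSMG4. The window of PSMB9, also inducible, held no GAAANNGAA. CCAAT was in 20 (47.6%), against 39.7% and 43.3%. GGGCGG was in 29 (69.0%), against 48.3% and 77.6%, and GCATGCGC in 2 (4.76%), against 3.68% and 6.56%. Members with TGACNNNGC had a median log2 fold change of 0.20 with TAM (15 genes), and compared members without it 0.42 (25 genes). With Rg3 the medians were −0.06 and 0.09. A match is a run of letters and not a bound site.

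The other genes of the pathway, 39 named from their known roles, were counted by the same limit. With Rg3, 9 of the 38 compared were over 1.5-fold higher (23.7%, against 25.0% of all genes) and 2 lower (5.26%, against 19.3%), with a median of 0.30. With TAM 3 were higher (7.89%, against 17.4%) and 7 lower (18.4%, against 23.5%), with a median of 0.03. With library totals the counts were 12 and 2 with Rg3 (31.4% and 13.8% of all genes) and 0 and 9 with TAM (9.8% and 32.6%). With the trend removed, over 37 genes, they were 3 and 1 with Rg3 (8.39% and 10.0% of all genes). With TAM they were then 4 and 3 (12.1% and 16.1%). NFE2L1, the factor that raises proteasome genes when the proteasome is blocked, had 6293 control, 6308 Rg3 and 7668 TAM counts, with log2 values of −0.32 and 0.49, or 0.04 and 0.53 with the trend removed. NFE2L2, the related factor of the oxidative stress response, had 473, 1208 and 245 counts. It was past the limit upward with Rg3 (1.03) and downward with TAM (−0.74), and kept both directions after removal of the trend (0.66 and −0.57). SEL1L, of the ER degradation machinery, had 310, 601 and 109 counts (0.63 and −1.30, or −0.12 and −0.43 with the trend removed). DDI2, the protease that activates NFE2L1, had 99, 153 and 36 (0.30 and −1.25, or −0.23 and −0.39). NFE2L3 had 544, 886 and 260 (0.38 and −0.86, or 0.10 and −0.60), and UFD1L, a partner of VCP, was at 0.69 with TAM (0.65 with the trend removed).

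POMP, the chaperone that completes the 20S core, had 513, 1014 and 538 counts, with 0.66 with Rg3 and 0.27 with TAM. The deubiquitinases USP14 (0.80) and UCHL5 (0.74) and the scaffold KIAA0368, now ECPAS (0.65), were also past the limit with Rg3. The values of POMP, USP14, UCHL5 and SEL1L with Rg3 were below 0 once the trend was removed. With TAM, the ubiquitin receptor ADRM1 was at 0.70 (0.18 with the trend removed) and ZFAND5, which activates the proteasome, at −1.12 (−0.93), with 380 and 152 counts in the control and TAM libraries. Of the shuttle factors that carry tagged proteins, UBQLN4 was at −0.75 with Rg3 and UBQLN2, with 376 control and 163 TAM counts, was past the limit downward with TAM. The ubiquitin gene UBB had 29687, 36928 and 29367 counts, with −0.01 with Rg3 and 0.19 with TAM. Among the interferon and peptide loading genes, B2M was past the limit with Rg3 (0.89), at 0.14 after removal of the trend, while the inducible proteasome genes in the same library were below 0.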

How the data were processed

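Total RNA of PANC-1 cells was sequenced on an Ion Proton in 3 libraries, 1 per condition by the labels. After alignment with TopHat, the authors deposited 1 table of raw, unnormalized counts with a row per gene symbol. The labels name GRCh38. The counting tool, annotation and use of strand are not given in the sources used here. The deposited column totals were the depth.

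Log2 fold changes used the TMM factors of edgeR (version 4.0.16, R 4.3.3) for genes that reached 10 counts in a library, and counts under 3 were raised to 3. With 1 library per condition, the Limma test of the study's methods could not be fitted and no p-value is given. Length and GC content came from the principal GENCODE 29 transcript of each symbol, found for all 48 members and for 89.6%, 90.2% and 89.5% of the genes compared in Rg3 against control, TAM against control and Rg3 against TAM. The trend was a loess (span 0.3). Named members were the 5 largest and smallest in each comparison, those past 1.5-fold with at least 50 counts, and the catalytic, activator and chaperone genes. Pathway genes were named when past 1.5-fold with at least 50 counts, with NFE2L1, NFE2L2, POMP and UBB, and some genes under this rule are not reported here. Members and lists were chosen with earlier results of these data known. The steps were tested on simulated data. Alternatives were library totals, DESeq2 1.42.0 size factors, other count and fold limits, an exact test with an assumed variation, and, added after seeing the data, at least 1000 counts, pseudogene rows added, members with shared stretches left out, and coding length. A planned comparison of protein sequences was not run because no protein sequences were used here.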

Additional observations from a re-analysis of the deposited data

How the results depend on the processing

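Counts of members past 1.5-fold depended on the setting. With Rg3, 8 higher and 3 lower became 14 and 1 with library totals and 1 and 1 with the GC and length trend removed. They became 18 and 13 at a lower fold limit (37.1% and 32.8% of all genes). With at least 1000 counts 1 was lower (18.3% of all genes in that class). The median became 0.038 with totals and the SD 0.27 with the trend removed. With TAM, 11 higher and 1 lower became 5 and 2 with totals, 11 and 2 with the trend removed and 27 and 2 at the lower fold limit (30.8% and 34.8%), and 0 were lower with DESeq2 size factors or at least 1000 counts. The median was 0.18 with totals, 0.27 with the trend removed and 0.53 at 1000 counts. Rg3 against TAM, 6 higher and 20 lower became 13 and 9 with totals (45.3% and 18.8% of all genes) and 3 and 12 with the trend removed, 11 were higher at the lower fold limit (42.9%), and the median was 0.046 with totals and −0.61 at 1000 counts. In edgeR's exact test with an assumed variation of 0.2, fewer members were called in every comparison and direction than by the fold limit alone. With 1 library per condition that variation could not be estimated, so the counts are not reported here. By coding length PSMC4 stood 17.9, 11.8 and 16.4 times over the median member in the control, Rg3 and TAM libraries.

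Directions of small differences turned with the scaling. With library totals 2 of 46 members turned with Rg3, 6 with TAM and 5 in Rg3 against TAM, none of them past the limit before, and the medians of Rg3 against control and against TAM turned as given above. With the trend removed 15, 8 and 20 turned, of which 1, 0 and 8 were past the limit before. Of the genes past the limit before, those that turned with Rg3 were PSMC2 (−0.091), POMP (−0.24), UCHL5 (−0.25), USP14 (−0.059) and SEL1L (−0.12). In Rg3 against TAM they were PSMC4 (0.10), PSMC6 (−0.067), PSMD1 (−0.026), PSMD3 (0.22), PSMD8 (0.15), PSMD5 (−0.0062), PSMD10 (−0.022) and PSME4 (−0.44). The cause was not tested. Filters of 1, 50 or 200 counts, pseudogene rows added and members with shared stretches left out kept every count within 1.5 times. Depth limits PSMB8, PSMB9 and PSMG4, whose intervals are the widest. No paired analysis was possible because the 3 libraries carry no replicate numbers and stand for 1 condition each.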
